A study of Mus musculus with 8 samples.

Results

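The interferon response genes described here are 40 genes chosen by symbol for their known place in the interferon response. They were found on the array through the RefSeq accession of each probe. Of the 40 genes, 38 had at least 1 probe and 37 entered the test, out of 22662 genes tested and 37018 genes or transcripts on the array. No accession of a probe matched Mx1 or Mx2, the Mx dynamin-like antiviral GTPases. The probe of Ifit1 was well above background on 1 of 4 wildtype arrays and on 0 of 4 mutant arrays, so it was not tested and has no fold change.

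Gene expression was measured on 8 Agilent mouse oligonucleotide arrays with 2 dyes, in nephron progenitors, the Six2-expressing cap mesenchyme cells that form the nephrons. The cells came from C57BL/6 kidneys at embryonic day 15.5 and were sorted by flow cytometry for EGFP. All embryos carried Six2CreEGFP, in which Six2 regulatory sequence drives both Cre and EGFP, so the control cells express Cre too. The mutant embryos were HDAC1&2f/f, with floxed alleles of the histone deacetylases Hdac1 and Hdac2, and the wildtype embryos were HDAC1&2+/+. Each group had 4 pools of cells, and the number of animals in a pool is not given. Cy5 carried the RNA of each pool (0.5 µg) and Cy3 carried wildtype pool 1 on every array, so a value below is a log2 ratio to that common RNA, and wildtype pool 1 was set against itself. In each group, pools 3 and 4 were as close to each other as repeat arrays of one RNA and were averaged, which left 3 wildtype and 3 mutant samples, written as pool 1, pool 2 and pools 3-4. Where nothing says that samples came from separate litters, p-values measure only the spread between these samples.

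Interferons are secreted proteins that cells release when they sense foreign or misplaced nucleic acid. Type I interferon binds the receptor chains Ifnar1 and Ifnar2, the kinases Jak1 and Tyk2 are activated, and a complex that holds Stat2 and Irf9 enters the nucleus. The complex binds the interferon-stimulated response element in front of many genes, some of which block viral replication, and several of them are also expressed at a low level without any interferon. Histone deacetylases remove acetyl groups from histones and other proteins and have been linked to both repression and induction of such genes.

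The response element has the core letters GAAANNGAAA, and those letters were searched on both strands of the RefSeq promoter windows (GRCm38.p6, from 250 bases before the transcription start to 50 after it). They were present in 14 of the 32 members that have a window (43.8%), against 3.99% of the 27025 genes with one. The following stretches lie wholly upstream of the start and are shown because their genes stand at different points of the range of differences given below: Rsad2, Oas1a, Gbp3 and Isg15 among the larger ones, Bst2 and B2m near 0, and Ifit3 below 0. Each is printed 5′ to 3′ on the strand of its gene, with the matching letters in capitals, so a match on the opposite strand reads TTTCNNTTTC. In several of them overlapping matches form 1 run.
Rsad2 (chr12:26456551-26456584, minus strand): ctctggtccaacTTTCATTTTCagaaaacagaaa
Oas1a (chr5:120907526-120907557, minus strand): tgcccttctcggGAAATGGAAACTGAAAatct
Gbp3 (chr3:142559987-142560026, plus strand): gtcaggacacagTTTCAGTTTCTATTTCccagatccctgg
Isg15 (chr4:156200863-156200908, minus strand): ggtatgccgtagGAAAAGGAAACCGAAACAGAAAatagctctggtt
Bst2 (chr8:71537575-71537614, minus strand): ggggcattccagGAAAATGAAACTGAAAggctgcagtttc
B2m (chr2:122147536-122147569, plus strand): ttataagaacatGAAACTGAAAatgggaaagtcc
Ifit3 (chr19:34583361-34583428, plus strand): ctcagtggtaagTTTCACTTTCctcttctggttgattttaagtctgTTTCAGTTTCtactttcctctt

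The targeted genes were looked at first. Hdac1 stood at 0.20, 0.14 and 0.15 in wildtype pools 1, 2 and 3-4 and at -0.07, -0.14 and -0.20 in the mutant pools, with no overlap. Its difference was -0.30 ± 0.09 (SE, n = 3 and 3; limma adjusted p = 0.476), and -0.40 and -0.57 on its other probes. Hdac2 differed by -0.13 ± 0.14 with overlapping groups (limma adjusted p = 0.84). The position of these probes with respect to the deleted exons is not given, so they are no measure of the deletion. Six2, the gene that defines the sorted cells, was well above background on all 8 arrays and differed by -0.13 ± 0.14. Markers of leukocytes, vessels, stroma, ureteric bud and red cells passed the same background filter, except Cd68, which had no probe. The array of wildtype pool 2 stood apart, with 48627 probes well above background in Cy5 against 28150 to 33982 on the other 7. Mutant pool 1 stood apart in the scatter of its Cy5 levels over probes. The median absolute deviation of the probe differences from another array was 0.442 to 0.595 for it. For the other pairs of different samples it was 0.163 to 0.279. This measure does not capture a shift in overall level. The mutant arrays fill 1 row of the slide and the wildtype arrays the other, so row and genotype cannot be told apart.

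No interferon response gene passed the test of mutant against wildtype, and most had a somewhat higher mean in the mutant. Of the 37 members, 0 passed an adjusted p of 0.05 in limma with Benjamini-Hochberg adjustment over all genes, where 10 genes passed (0.0441%). The smallest adjusted p among members was 0.471. By direction, 5 genes were higher (0.0221%) and 5 lower (0.0221%). With a replicate block for the pool number, 34 genes passed (0.15%; 0.0353% higher and 0.115% lower) and again 0 members, with a smallest adjusted p of 0.169. The members' median difference was 0.13 on the log2 scale, with a range from -0.19 to 0.50, beside a median of 0.00 over all genes (0.0017 to more digits). In 28 of 37 members (75.7%) the mutant mean was the higher one, against 50.5% of all genes. The median was 0.28 without mutant pool 2, 0.23 without wildtype pools 3-4, 0.22 without pool 2 of both groups, and 0.17 without mutant pool 1, where 26 members were higher. It fell to 0.097 without wildtype pool 2, 0.105 without mutant pools 3-4 and 0.121 without wildtype pool 1. Centring the arrays on the spike-in probes lowered the median of all genes to -0.17 and turned the members' median to -0.04, with 18 of 37 higher. That centring shifts all genes of an array alike, so the members' median relative to that of all genes stayed at 0.13 by construction. The differences therefore describe members relative to the rest of the array, not an absolute level. In sorted bulk RNA, fewer cells of a type and less RNA per cell cannot be told apart.

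**Figure D1:**
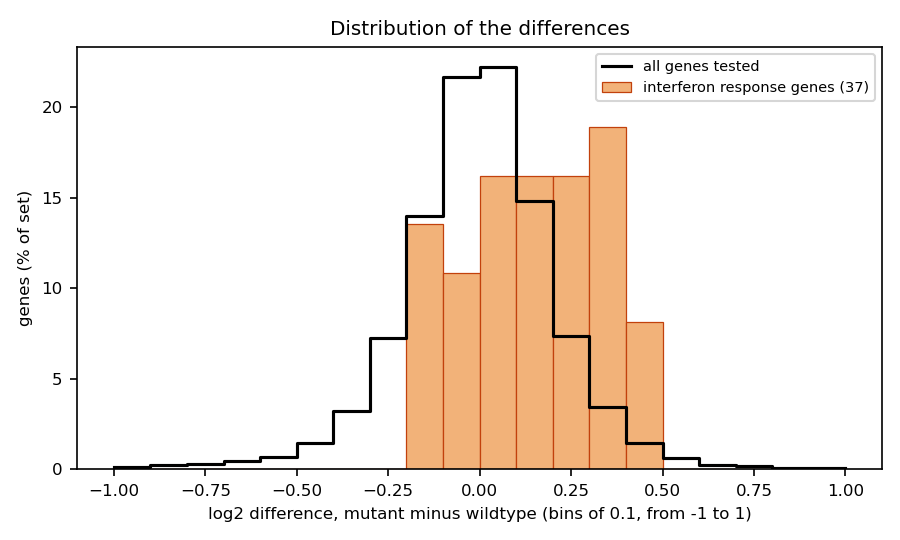
Share of genes (y axis, % of each set) by log2 difference of mutant minus wildtype in bins of 0.1 (x axis), with bars for the 37 interferon response genes and a line for all 22662 genes tested. The bars run from -0.19 to 0.50 around a median of 0.13, and the line is centred on 0.00.

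At an unadjusted p under 0.05, 5 members were higher (13.5%; 4.46% of all genes) and 0 lower (2.78% of all genes). With the replicate block these counts were 12 higher (32.4%; 7.77% of all genes) and 0 lower (4.88%). All 3 mutant samples lay above all 3 wildtype samples in 7 members (18.9%), namely Irf9, Ifih1, Usp18, Oas1a, Oasl2, Rtp4 and Gbp3, against 8.72% of the genes with a value in every sample, and they lay below in 0 members, against 5.95%. On single arrays, before pools 3 and 4 were averaged, the groups overlapped in Irf9, Usp18 and Gbp3. Between pools of the same number, 18 members (48.6%) were higher in the mutant in all 3 pairs, against 23% of all genes. Ifit3 alone was lower in all 3 pairs, a pattern held by 17.4% of all genes. In the main processing the sizes were small: 10 members (27%) had a difference above 0.3, against 6.07% of all genes. In it 0 members had a difference of more than 1 in either direction. The sizes depend on the processing. The members' median of 0.13 became 0.159 with a background offset of 10, 0.207 with Agilent's processed signals and -0.04 when centred on spike-ins. Across settings Ifi44 ran from -0.21 to 0.89. The members were also dimmer, with a median wildtype Cy5 level of 8.78 against 9.57 for all genes.

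**Figure D2:**
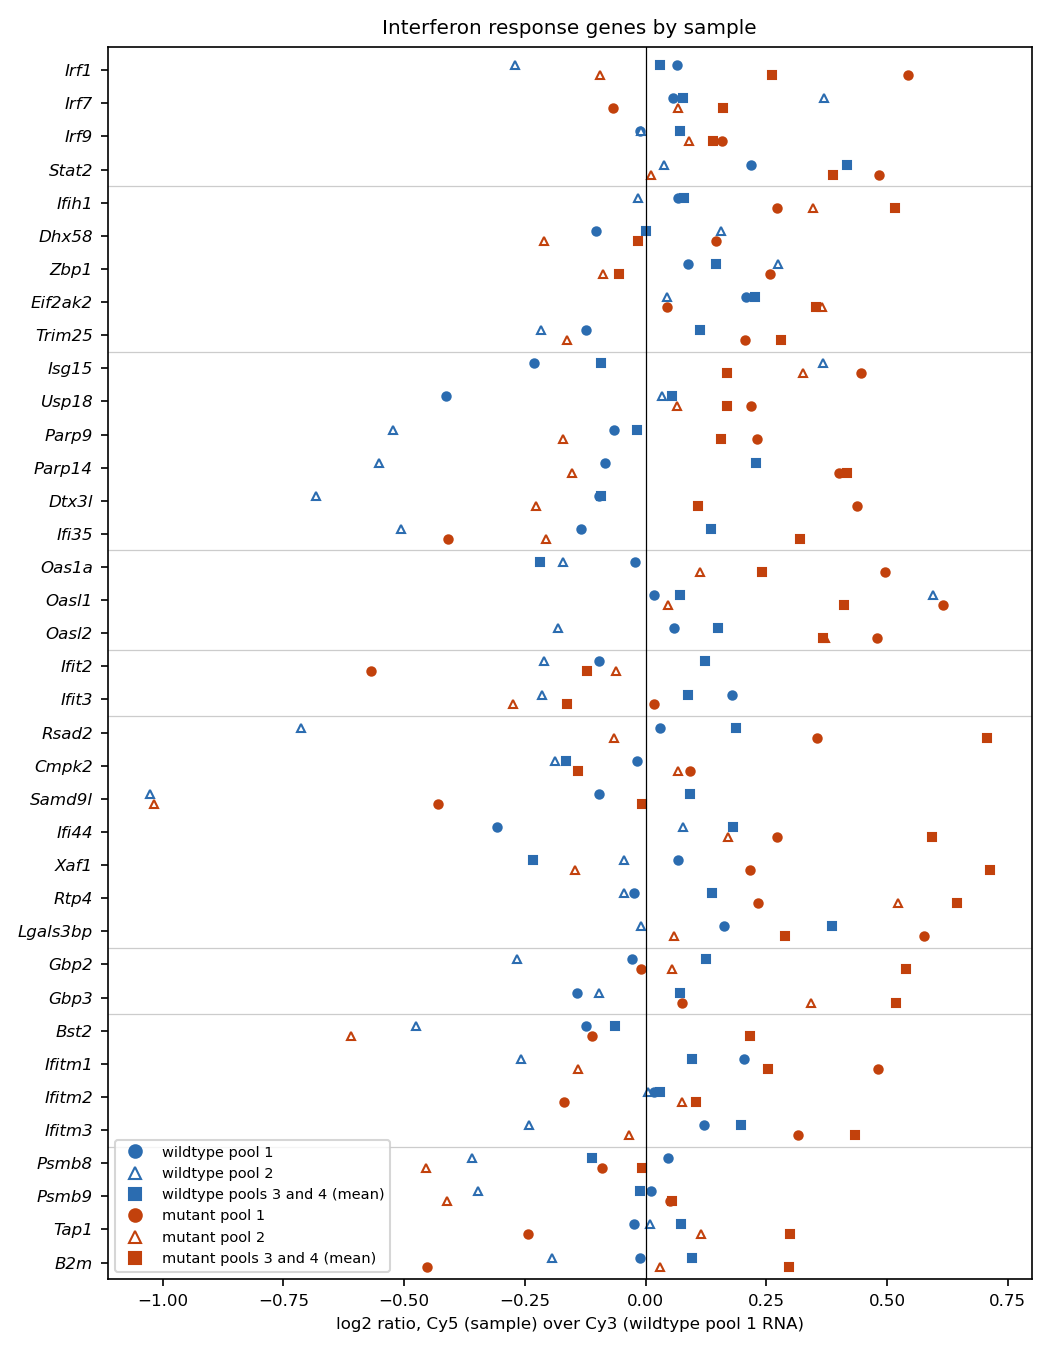
Log2 ratio to wildtype pool 1 RNA (x axis) of each of the 37 tested interferon response genes (rows, grouped by role) in the wildtype samples (blue) and mutant samples (orange), with pool 2 as an open triangle. In 18 members each mutant point lies to the right of the wildtype point of the same shape, and in both groups the triangles are often the leftmost points, as for Samd9l at -1.03 and -1.02.

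Among the transcription factors of the response, Irf1 had the largest difference. Irf1, a factor induced by interferon gamma, stood at 0.07, -0.27 and 0.03 in wildtype pools 1, 2 and 3-4 and at 0.54, -0.09 and 0.26 in the mutant pools. Pool 2 was the lowest sample in each group, and the groups overlapped, with a difference of 0.30 ± 0.18 (SE; limma adjusted p = 0.795). A second probe of Irf1 was well above background on 1 array only and was not used.

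Irf9 and Stat2 are the DNA-binding and transactivating parts of the complex that type I interferon activates. Irf9 was between -0.01 and 0.07 in wildtype and between 0.09 and 0.16 in the mutant, a difference of 0.11 ± 0.09 in which the groups did not overlap, and which turned to -0.06 on the spike-in scale. Stat2 differed by 0.07 ± 0.16. Irf7, which amplifies type I interferon production, differed by -0.12 ± 0.12, with its highest value, 0.37, in wildtype pool 2. Together the 4 factors had a median difference of 0.09.

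The sensors detect foreign RNA or DNA in the cytoplasm. Ifih1, the MDA5 receptor for long double-stranded RNA, had ratios of 0.07, -0.02 and 0.08 in the wildtype samples and of 0.27, 0.35 and 0.52 in the mutant samples. Every mutant value was above every wildtype value. The difference was 0.34 ± 0.10, a 1.26-fold ratio (95% interval 0.09 to 0.58 on the log2 scale), at an unadjusted p of 0.0134 and a limma adjusted p of 0.491.

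Trim25, a ubiquitin ligase that activates the RIG-I sensor, read -0.12, -0.22 and 0.11 in wildtype and 0.21, -0.16 and 0.28 in the mutant. The groups overlapped through the low pool 2 values, and the difference was 0.18 ± 0.15. Zbp1, a sensor of Z-form nucleic acid, was measured by a pair of probes that disagreed in sign. Its brighter probe read 0.09, 0.27 and 0.15 in wildtype and 0.26, -0.09 and -0.05 in the mutant, a difference of -0.13 ± 0.12 with overlapping groups. The other probe gave 0.14 ± 0.12. It was well above background on 1 wildtype array and 3 mutant arrays, so it passed the filter through the mutant arrays alone. The brighter probe was so on 3 arrays of each group. Their mean Cy5 levels in wildtype were 6.43 and 7.23, so the dimmer probe is a weak check on the sign. No direction is given for Zbp1. Dhx58, the LGP2 helicase, differed by -0.04 ± 0.13, and Eif2ak2, the PKR kinase that stops translation on double-stranded RNA, by 0.09 ± 0.12.

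Isg15 is a small ubiquitin-like protein that is attached to other proteins, and Usp18 removes it and also damps the receptor. Isg15 stood at -0.23, 0.37 and -0.09 in the wildtype samples and at 0.45, 0.33 and 0.17 in the mutant samples. The high wildtype pool 2 value lay among the mutant values, and the difference was 0.30 ± 0.17 (limma adjusted p = 0.786). A dimmer second probe of Isg15 gave 0.11. Usp18 read -0.41, 0.03 and 0.05 in wildtype and 0.22, 0.07 and 0.17 in the mutant, without overlap and with a difference of 0.26 ± 0.15. The value of -0.41 came from the array that carried the same RNA in both dyes, where the expected log2 ratio is 0. It was the largest ratio of any member there, and the median size of the members' ratios on that array was 0.08, against 0.09 for all genes.

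Parp9, Dtx3l and Parp14 are neighbouring genes: Parp9 and Dtx3l form a complex of an ADP-ribosyltransferase and a ubiquitin ligase, and Parp14 is a further ADP-ribosyltransferase. Dtx3l had values of -0.10, -0.68 and -0.09 in wildtype and of 0.44, -0.23 and 0.11 in the mutant. Parp14 had values of -0.08, -0.55 and 0.23 in wildtype and of 0.40, -0.15 and 0.42 in the mutant. In both genes pool 2 was far below the other samples of its group, each mutant pool was above the wildtype pool of the same number, and the groups overlapped. The differences were 0.40 ± 0.22 for Dtx3l, 0.36 ± 0.24 for Parp14 and 0.27 ± 0.17 for Parp9, which had the same low pool 2. With the replicate block the SE of Dtx3l was 0.10 (limma adjusted p = 0.243). Ifi35, which is induced by interferon, differed by 0.07 ± 0.23, and the 6 modifiers and regulators had a median of 0.29.

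The members of the 2-5 oligoadenylate synthetase family are, or resemble, enzymes that make 2-5 oligoadenylate, which activates RNase L. Oas1a read -0.02, -0.17 and -0.22 in wildtype and 0.49, 0.11 and 0.24 in the mutant. All mutant samples were above all wildtype samples, with a difference of 0.42 ± 0.13, a 1.34-fold ratio (95% interval 0.12 to 0.72; unadjusted p = 0.0129, limma adjusted p = 0.489). A second probe of Oas1a gave 0.24.

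Oasl2, a relative that carries ubiquitin-like repeats, read 0.06, -0.18 and 0.15 in wildtype and 0.48, 0.37 and 0.37 in the mutant. Again the groups did not overlap, and the mutant samples lay close together. The difference was 0.40 ± 0.12, a 1.32-fold ratio, with the smallest p of the members (unadjusted p = 0.0107, limma adjusted p = 0.471). Its neighbour Oasl1, a translational repressor of Irf7, differed by 0.13 ± 0.20 and had its second highest value, 0.60, in wildtype pool 2.

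The Ifit proteins bind foreign RNA ends, and both tested members of the family had negative differences that did not pass. Ifit2 differed by -0.19 ± 0.16 and Ifit3 by -0.16 ± 0.14, with overlapping groups in both. On the Cy5 channel alone, without the common reference, both were positive, at 0.19 and 0.20, where the median of all genes was 0.13. In the main processing their mean Cy5 levels were instead lower on the mutant arrays. Ifit2 was at 8.45 in wildtype and 8.16 in the mutant, and Ifit3 at 6.86 and 6.69. Their sign on Cy5 therefore depends on the processing. Ifit3 carries the pair of response element matches printed above, and Ifit1, which has 2 matches upstream of its start, was not well above background.

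Rsad2, or viperin, is a radical-SAM enzyme that makes a chain-terminating nucleotide, and it had the largest difference of the members. Its ratios were 0.03, -0.71 and 0.19 in wildtype pools 1, 2 and 3-4 and 0.36, -0.06 and 0.71 in the mutant pools. Wildtype pool 2 was far below the rest and mutant pool 2 was below the other wildtype samples, so the groups overlapped. The difference was 0.50 ± 0.28, a 1.41-fold ratio (95% interval -0.17 to 1.16; limma adjusted p = 0.785). Within pools the mutant was higher in all 3 pairs, and the SE with the replicate block was 0.10 (limma adjusted p = 0.169). Cmpk2, the adjacent gene, which encodes a nucleotide kinase, differed by 0.13 ± 0.11, and by -0.04 on the spike-in scale.

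Rtp4, a chaperone of membrane receptors that is induced by interferon, read -0.02, -0.04 and 0.14 in wildtype and 0.23, 0.52 and 0.65 in the mutant. The groups did not overlap. It differed by 0.44 ± 0.13, a 1.36-fold ratio (95% interval 0.13 to 0.75; unadjusted p = 0.0117, limma adjusted p = 0.474). Ifi44 read -0.31, 0.08 and 0.18 in wildtype and 0.27, 0.17 and 0.59 in the mutant. Mutant pool 2 lay just below the highest wildtype sample, and the difference of 0.36 ± 0.17 turned to -0.21 on the Cy5 channel alone.

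Xaf1, an antagonist of the apoptosis inhibitor XIAP, was 0.07, -0.04 and -0.23 in wildtype and 0.22, -0.15 and 0.71 in the mutant. On this probe the mean rested on mutant pools 3-4, the groups overlapped, and the difference was 0.33 ± 0.22. A second probe gave 0.35, but from other pools. It read 0.24, -0.42 and 0.09 in wildtype pools 1, 2 and 3-4 and 0.50, 0.35 and 0.09 in the mutant pools. Samd9l, an antiviral and growth-restraining protein, was -0.10, -1.03 and 0.09 in wildtype and -0.43, -1.02 and -0.01 in the mutant. Its second probe had pool 2 at -0.96 and -0.81, so the low pool 2 was seen on both probes, while the mutant and wildtype means differed by -0.14 ± 0.35. Lgals3bp, a secreted glycoprotein, differed by 0.13 ± 0.16.

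Guanylate-binding proteins are large GTPases that coat intracellular pathogens. Gbp3 read -0.14, -0.10 and 0.07 in wildtype and 0.08, 0.34 and 0.52 in the mutant. The lowest mutant sample was only just above the highest wildtype sample. The difference was 0.37 ± 0.14, a 1.29-fold ratio (unadjusted p = 0.0311, limma adjusted p = 0.621). Gbp2, which lies close to it in the genome, differed by 0.25 ± 0.18.

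The membrane restriction factors had bright probes. Ifitm3, which blocks fusion of virus with the endosome, read 0.12, -0.24 and 0.20 in wildtype and 0.32, -0.03 and 0.43 in the mutant. Ifitm1 read 0.20, -0.26 and 0.10 in wildtype and 0.48, -0.14 and 0.25 in the mutant. Both were lowest in pool 2 of each group and higher in the mutant within each pool, and the groups overlapped, with differences of 0.21 ± 0.17 and 0.18 ± 0.19. Their neighbour Ifitm2 did not share the dip: it read 0.02, 0.00 and 0.03 in wildtype and -0.17, 0.07 and 0.10 in the mutant, a difference of -0.01 ± 0.11 (95% interval -0.26 to 0.24). Bst2, or tetherin, which holds budding virus at the cell surface, read -0.12, -0.48 and -0.06 in wildtype and -0.11, -0.61 and 0.22 in the mutant. It had the dip in pool 2 and a difference of 0.05 ± 0.22.

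The genes of antigen processing had the smallest differences of all the roles, with a median of 0.00 over 4 genes. B2m, the light chain of MHC class I, read -0.01, -0.19 and 0.10 in wildtype and -0.45, 0.03 and 0.30 in the mutant. The mutant samples spread to both sides of the wildtype samples, and the difference was -0.01 ± 0.20 (95% interval -0.47 to 0.46). Psmb8 and Psmb9, subunits of the immunoproteasome, differed by -0.04 ± 0.16 and 0.01 ± 0.17, and Tap1, a chain of the peptide transporter that lies between them in the genome, by 0.04 ± 0.15.

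**Figure D3:**
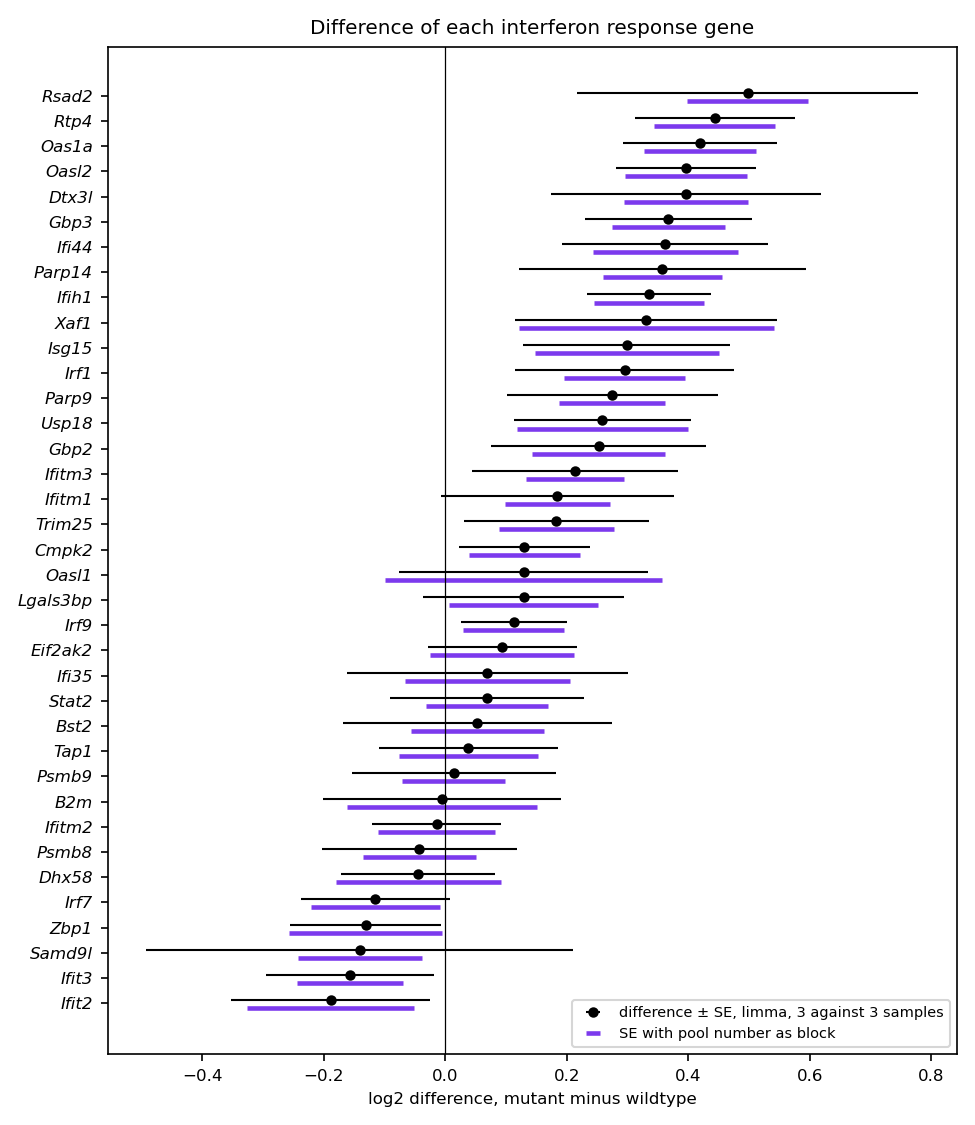
Log2 difference of mutant minus wildtype (x axis) of the 37 tested members, ordered by size, with its SE in limma over 3 against 3 samples (black) and the SE with the pool number as a block (violet). Rsad2 at 0.50 ± 0.28 is the largest and Ifit2 at -0.19 ± 0.16 the lowest, and the black bar of Rsad2 is far wider than the violet one.

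Members with and without the response element letters overlapped widely. The median difference was 0.21 over 13 tested members with a match (from -0.16 to 0.50, 10 of them higher) and 0.13 over 18 with a window and no match (from -0.19 to 0.40, 14 of them higher). The element of interferon gamma signalling was searched as TTCNNNGAA, which reads the same on both strands. It was found in 8 of 32 members with a window (25%) and in 9.55% of all genes, and the 8 members had a median difference of 0.08. These are descriptions of letters, and no test was made of them.

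The members varied more between pools of one genotype than genes in general. The median SD over samples was 0.19 in wildtype and 0.24 in the mutant, against 0.12 and 0.17 over all genes. This was not particular to the members. The SD was 0.23 and 0.36 for leukocyte markers, 0.21 and 0.28 for endothelial markers and 0.20 and 0.34 for stromal markers. It was 0.18 and 0.31 for erythroid, 0.15 and 0.30 for ureteric bud and 0.16 and 0.17 for nephron progenitor markers. Pool 2 was set against the mean of the other samples of its group. The members' median was -0.22 in wildtype and -0.26 in the mutant, where the medians of all genes were -0.06 and -0.01. Pool 2 was the lower side in both groups in 21 of 37 members (56.8%), against 38.4% of all genes. It was lower by more than 0.3 in both groups in 11 members (29.7%), against 6.64% of all genes, a threshold chosen after the values were seen. Samd9l, Rsad2, Parp14 and Dtx3l had the deepest dips common to both groups. Isg15 and Oasl1 stood out the other way in wildtype, at 0.53 and 0.55, and not in the mutant. Their Cy3 levels, from the same RNA on every array, had an SD over arrays of 0.40 and 0.80. The median of that SD over members was 0.17, and it was also high for Irf7 (1.04), Ifi44 (0.95), Zbp1 (0.86) and Dhx58 (0.84). The ratios of these genes are therefore less certain. The dimmer probe of Isg15 had wildtype pool 2 at -0.05. Mutant pool 1 departed from the other mutant samples by more than 0.3 in 15 members (40.5%), 7 of them above and 8 below, as did 39.2% of all genes. B2m at -0.62 and Dtx3l at 0.50 were furthest on each side.

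**Figure D4:**
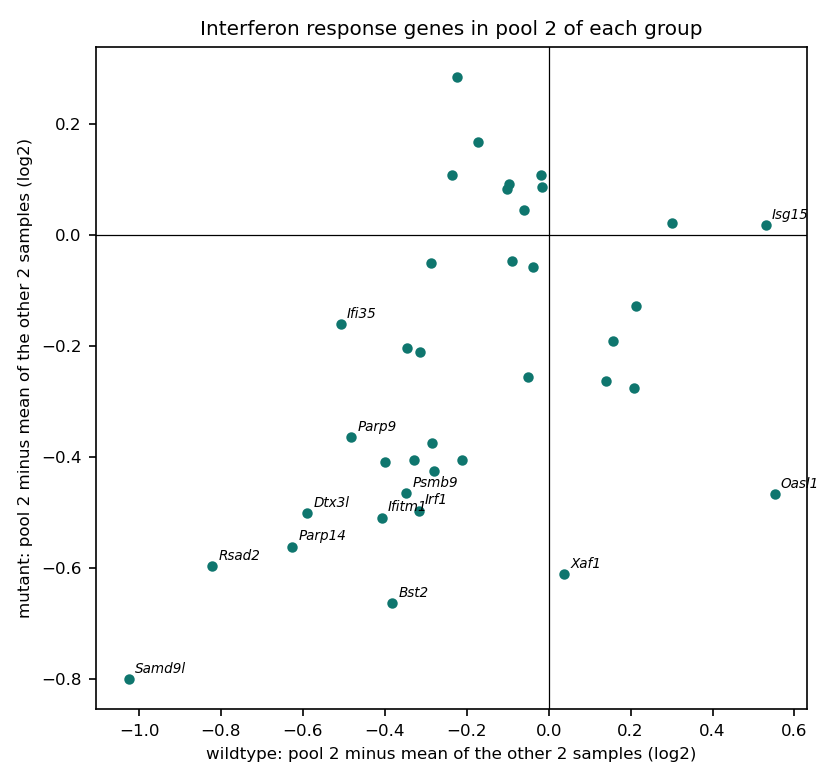
For each of the 37 members (points), pool 2 minus the mean of the other samples in wildtype (x axis) and in the mutant (y axis), on the log2 scale. Of the points, 21 lie below 0 on both axes, with Samd9l at -1.03 and -0.80, Rsad2 at -0.82 and -0.60, and Isg15 to the right at 0.53.

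Markers of other cell types dipped in pool 2 as well. The median of 15 macrophage and leukocyte markers was lower in pool 2 by -0.38 in wildtype and -0.36 in the mutant, that of 12 endothelial markers by -0.30 and -0.28, and that of 6 erythroid markers by -0.31 and -0.28. For 12 interstitial stroma markers the values were -0.17 and -0.38, and for 8 ureteric bud markers -0.15 and -0.35. The 13 nephron progenitor markers went the other way, at 0.10 and 0.17. Their part in the members' dip was not tested.

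Several of these lists also differed between the groups, and their values stand here beside the members' median of 0.13. Stromal markers had a median difference of 0.24, with 11 of 12 higher, ureteric bud markers 0.26, with 6 of 8 higher, and endothelial markers 0.16, with 9 of 12 higher. Their sample medians ran from -0.05 to 0.10 in wildtype and from 0.07 to 0.47 in the mutant for stroma, from -0.30 to -0.04 and from -0.10 to 0.33 for ureteric bud, and from -0.33 to -0.02 and from -0.08 to 0.17 for endothelium. Leukocyte markers had a median of 0.03, with 10 of 15 higher, and sample medians from -0.34 to -0.01 in wildtype and from -0.34 to 0.18 in the mutant. Of all genes, 50.5% had the higher mean in the mutant. In these 4 lists 0 markers passed the adjusted limma test, against 0.0441% of all genes. At an unadjusted limma p under 0.05, 3 of 12 stromal and 3 of 8 ureteric markers were higher, against 4.46% of all genes. By the same measure 1 of 15 leukocyte markers was lower, against 2.78% of all genes. Their part in the members' differences was not tested. Nephron progenitor markers had a median of -0.29, with 3 of 13 higher, and of them Cited1, a marker of the uncommitted progenitor, fell by 2.72 ± 0.13 (limma adjusted p = 0.00279).

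The rest of the pathway was described from a list of 98 further genes, of which 95 were on the array and 80 were tested. Again 0 genes passed with or without the replicate block (smallest limma adjusted p = 0.255 and 0.065), with 7 of 80 higher and 0 lower at an unadjusted p under 0.05 (4.46% and 2.78% of all genes). The median difference was 0.11, and 60 of 80 genes had the higher mean in the mutant (50.5% of all genes). The mutant samples were all above in 13 genes (8.72% of all genes) and all below in 1 gene, the adaptor Ticam1 (5.95% of all genes). On the spike-in scale the median turned to -0.07.

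At the head of the pathway, the interferons Ifnb1, Ifna4 and Ifng each had 1 probe, which was well above background on 1, 0 and 1 of the wildtype arrays and on 0 mutant arrays. The receptor chains were measured on all 8 arrays. Ifnar1 read -0.04, -0.05 and 0.06 in wildtype and 0.18, 0.12 and 0.14 in the mutant, without overlap, a difference of 0.16 ± 0.09 (limma adjusted p = 0.779). Ifnar2 differed by 0.02 ± 0.09 and Irf3, the factor that switches on the interferon genes themselves, by -0.03 ± 0.10.

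The 3 further genes with the largest differences in size were H2-K1, H2-T23 and Sting1. H2-K1, a classical class I heavy chain, read -0.10, -0.36 and -0.14 in wildtype and 0.91, 0.34 and 0.95 in the mutant. The groups were far apart, and the difference was 0.94 ± 0.18, a 1.91-fold ratio (limma adjusted p = 0.255; 0.065 with the replicate block). It passed the test where all 8 arrays were counted as separate samples (limma adjusted p = 0.0174). That setting counts pools 3 and 4 of a group separately, although they were as close as repeat arrays of one RNA. It therefore overstates the number of samples, and many more of all genes passed in it than in the main fit. H2-T23, a nonclassical heavy chain, read -0.17, -0.24 and -0.06 in wildtype and 0.01, 0.20 and 0.98 in the mutant, a difference of 0.55 ± 0.24 carried mostly by pools 3-4. Of the genes that load these chains, looked up after the values were seen, Tap2 differed by 0.41 ± 0.28 and Tapbp by 0.28 ± 0.22, both with overlapping groups and higher in all 3 pairs, while B2m, Tap1, Psmb8 and Psmb9 lay between -0.04 and 0.04. The contrast with the heavy chains was not tested.

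Sting1, the adaptor that answers cytosolic DNA, read -0.14, -0.25 and -0.26 in wildtype and 0.69, 0.07 and 0.13 in the mutant. The groups did not overlap, and the difference was 0.51 ± 0.17 (limma adjusted p = 0.569). Tbk1, the kinase that acts with it, had the lowest difference of the further list, -0.39 ± 0.42, with mutant pool 1 at -1.46 and the other mutant samples at 0.16 and 0.18. It was singled out after its values were seen. Of the further genes with the brightest probes, Psme2, a subunit of the proteasome activator, differed by 0.28 ± 0.09 without overlap, Ogfr by 0.11 ± 0.10 and Sp110, a nuclear body protein, by 0.05 ± 0.11.

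**Figure D5:**
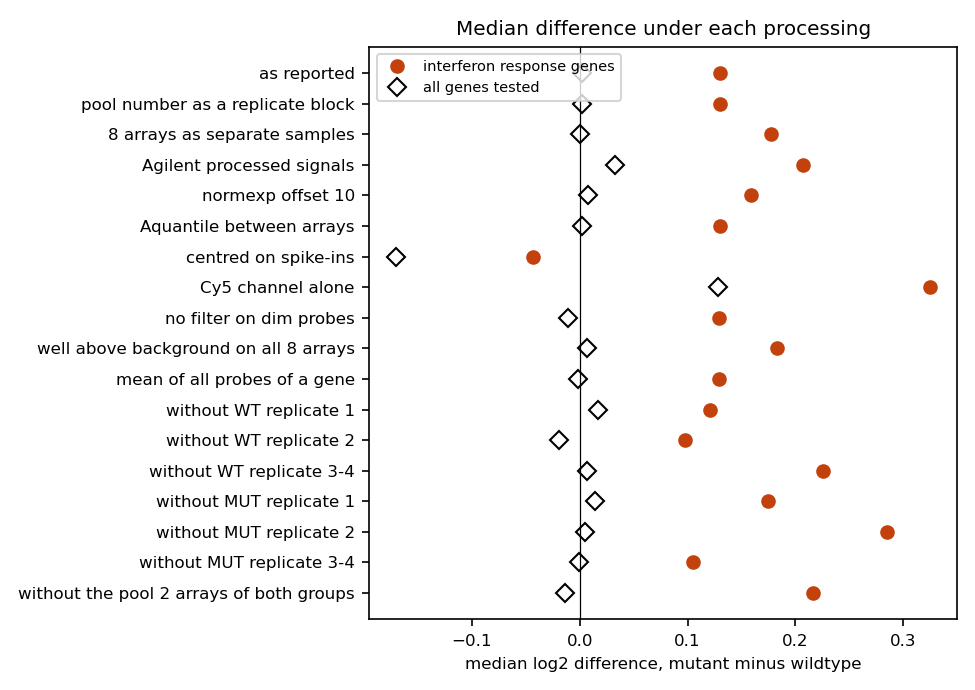
Median log2 difference of mutant minus wildtype (x axis) of the interferon response genes (filled circles) and of all genes tested (open diamonds) as reported and under 17 other settings (rows). The circle lies to the right of the diamond in every row, by 0.10 at the least and 0.28 at the most, and left of 0 only where arrays were centred on spike-ins. With that centring and with the replicate block the gap is fixed by construction, save for missing values, so those rows are no separate check.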

How the data were processed

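Per the file headers, the scanner output is the intensity of each spot in both dyes, extracted by the authors with Agilent Feature Extraction 10.7.3.1 (submitters' processing notes). A value table that was also deposited holds log10 ratios of Cy5 over Cy3 from the same arrays (largest difference 0.00498). From the deposited intensity medians, log2 ratios were computed with limma 3.58.1 (R 4.3.3) by normexp background correction with an offset of 50 and loess within arrays, without scaling between arrays. Of 55681 probes, 30364 were kept because their Cy5 signal exceeded background clearly on 3 or more of a group's 4 arrays, and the brightest probe of each gene was used. Symbols came from RefSeq accessions (GRCm38.p6; 27509 probes named). Two-sided limma tests were adjusted over 22662 genes, and scripts were tested on simulated data. With 3 samples a group the precision is low.

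Cy5 levels of pools 3 and 4 differed by a median absolute deviation of 0.0838 (wildtype) and 0.0896 (mutant), against 0.0674 to 0.116 for the shared Cy3 RNA between arrays other than wildtype pool 2 (0.101 to 0.148 with it), so each such pair was averaged. Deviations of same-numbered samples from their group mean correlated at 0.495, 0.543 and 0.527, so the pool numbers were taken to pair the samples. Those of differently numbered samples correlated at -0.454 to -0.0777. Deviations in a group sum to 0, which pushes these values down, so they are no separate support. The pairing was chosen from the values that the replicate block then uses. Equal numbers also share a column of the slide. Per sample values are given for the 12 members with the largest differences, the 6 with the brightest probes and those whose probes disagree, beside Samd9l, Usp18 and others chosen after their values were seen. Members and lists were chosen with earlier results of these data known.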

Additional observations from a re-analysis of the deposited data

How the results depend on the processing

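No member passed the adjusted test in any of the 17 alternatives in which it was run; 4 members entered only 16. The sign held throughout in 18 members, 17 higher and 1 lower (2 of the 18 run in 16), and was opposite at least once in 19. The members' median difference (0.13) was 0.207 with Agilent's processed signals, 0.325 on the Cy5 channel alone (all genes 0.128), 0.183 for probes well above background on all 8 arrays, 0.217 without the pool 2 arrays of both groups (added after seeing the data) and -0.043 when centred on spike-ins (all genes -0.17, 18 members higher); leaving out 1 sample gave 0.0975 (without wildtype pool 2) to 0.284 (without mutant pool 2), and 24 to 31 members higher. The further pathway genes' median (0.11) was 0.138, 0.229, 0.128 and -0.0655 with Agilent signals, Cy5 alone, without pool 2 and on spike-ins, 0.0861 with no filter on dim probes, 0.0927 with the mean of a gene's probes, and 0.049 (without wildtype pool 2) to 0.172 (without mutant pool 2) with 1 sample left out. Genes called among all genes (10) numbered 34 with the replicate block, 257 with 8 arrays as separate samples (1 further pathway gene, H2-K1), 5 on spike-ins, 1 on Cy5 alone, 0 without pool 2 and 1 to 9 with 1 sample left out. Opposite signs were most frequent on spike-ins (10 members), on Cy5 alone (8, with Oasl1 at -0.43) and without mutant pool 1 (6). Of members at least 1 SE from 0, the sign turned for Zbp1 (0.119 with Agilent signals, 0.0036 as the mean of its probes), for Irf9 and Cmpk2 on spike-ins (-0.060 and -0.043), and for Ifit2, Ifit3 and Ifi44 on Cy5 alone (0.193, 0.195 and -0.214). The cause of these shifts was not tested. With 3 samples a group no exact permutation test of a single value can go below 0.1.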

Other observations

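The following genes were picked after their values were seen, and other genes of the further pathway list, such as Socs1 at 0.47, Ifngr1 at 0.43 and Uba7 at 0.42, had differences of similar size. Cgas, the DNA sensor upstream of Sting1, read 0.13, -0.04 and 0.38 in wildtype pools 1, 2 and 3-4 and 0.75, 0.64 and 0.60 in the mutant pools. The groups did not overlap, and the difference was 0.51 ± 0.13 (limma adjusted p = 0.369). H2-D1, the other classical class I heavy chain, read 0.12, -0.24 and -0.02 in wildtype and 0.24, 0.01 and 0.79 in the mutant, and differed by 0.39 ± 0.21 with overlapping groups. Cd74, the invariant chain of MHC class II, belongs to the leukocyte markers and not to the pathway list. It stood at -0.01, 0.06 and 0.13 in wildtype and at -0.57, -0.59 and -0.50 in the mutant. Its difference was -0.61 ± 0.09 and did not pass the test (limma adjusted p = 0.134).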
